A study of Mus musculus with 46 samples.

Results

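Hnf4α peaks were found at 3432 loci of the mouse liver in both samples from a lipid-rich diet (LD) and in neither sample from a carbohydrate-rich diet (CD), out of 70756 loci with a peak in at least 1 of the 4 samples. These loci, called LD-only here, were found by merging overlapping peaks of the 4 Hnf4α ChIP-seq peak lists and keeping those with a peak from both LD lists and from no CD list. The loci were thus chosen by their Hnf4α peak calls, and the peak heights on the LD and the absence of a CD peak are given as a description without a test. A locus without a peak is one where the caller did not pass its threshold, so that LD-only does not mean that no Hnf4α was bound on the CD. Livers came from male C57BL/6 mice, 5 weeks old at purchase, all kept on normal chow for 1 week and then fed either diet for up to 20 weeks. The LD drew most of its energy from fat and the CD from carbohydrate, and the labels call them the high fat and the low fat diet. Besides Hnf4α and C/EBPα ChIP-seq (2 samples per diet for each, with inputs), the study deposited H3K27ac ChIP-seq (3 per diet), RNA-seq (5 per diet) and promoter capture Hi-C (PCHi-C, 2 per diet, pooled into 1 list per diet). The labels do not say whether samples of different assays came from the same animals, and p-values measure the spread between these samples.

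Hnf4α is a nuclear receptor that binds DNA as a homodimer at direct repeats of a hexamer and keeps many genes of the differentiated hepatocyte active, among them genes of lipid transport, gluconeogenesis, amino acid catabolism and drug metabolism. C/EBPα is a leucine zipper factor that shares many liver enhancers with it. H3K27ac, an acetyl mark on histone H3, is found at active promoters and enhancers.

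The RNA libraries held between 31707963 and 39012699 counted read pairs. In all 4 Hnf4α lists, a peak's tag count was 4.0 times its height, so that the lists had been scaled to the same library size. Heights still differed between samples over the same loci, as the medians below show. They are set side by side with that limit. The lists held 46363 and 44247 peaks on the LD and 35143 and 47992 on the CD. CD replicate 1 stood apart as the shortest list, and over the 23344 loci with a peak in all 4 lists its median height was 21.5, against 35.8 and 33.5 in the LD samples and 42.8 in CD replicate 2. The number of LD-only loci follows the lists it is drawn from. It was 4285 without CD replicate 1, 9264 without CD replicate 2, 9603 without LD replicate 1 and 10481 without LD replicate 2. With the same number of peaks taken from each list it was 2404, of which 1496 were also LD-only loci of the full lists.

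Sequences of 5 LD-only loci are shown to give the DNA beneath the peaks that the results below return to. Each is the plus strand of mm9, 300 bases around the middle of the higher LD peak, and none has a CD peak middle within 1 kb. Sik1 has the highest such locus, Gprc5b and Orm3 loci that carried both H3K27ac and C/EBPα in the LD samples alone, Hao2 a locus with the HNF4 string, and Cps1 the highest locus among the 8 genes named below for the largest falls. Capitals mark matches on either strand to CAAAGTCCA (HNF4), its looser form CAAAGNNCA, ATTGCNNAA (C/EBP), TGANTCA (AP-1), TGTTTAC (FOXA) and AGGAAGT (ETS), and a run without capitals holds none of these letters.
Sik1 locus, chr17:32040975-32041274: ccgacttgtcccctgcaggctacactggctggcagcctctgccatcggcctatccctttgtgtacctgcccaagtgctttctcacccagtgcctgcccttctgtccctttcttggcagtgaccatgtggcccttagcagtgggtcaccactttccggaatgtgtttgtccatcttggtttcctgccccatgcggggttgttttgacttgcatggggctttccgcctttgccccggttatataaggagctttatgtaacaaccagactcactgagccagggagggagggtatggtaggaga
Gprc5b locus, chr7:126123274-126123573: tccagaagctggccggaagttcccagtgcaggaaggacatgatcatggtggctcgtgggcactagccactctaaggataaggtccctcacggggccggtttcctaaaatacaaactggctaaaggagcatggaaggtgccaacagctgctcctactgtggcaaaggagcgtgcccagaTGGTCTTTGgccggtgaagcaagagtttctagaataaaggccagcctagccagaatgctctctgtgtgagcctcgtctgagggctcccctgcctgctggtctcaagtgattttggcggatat
Orm3 locus, chr4:63015297-63015596: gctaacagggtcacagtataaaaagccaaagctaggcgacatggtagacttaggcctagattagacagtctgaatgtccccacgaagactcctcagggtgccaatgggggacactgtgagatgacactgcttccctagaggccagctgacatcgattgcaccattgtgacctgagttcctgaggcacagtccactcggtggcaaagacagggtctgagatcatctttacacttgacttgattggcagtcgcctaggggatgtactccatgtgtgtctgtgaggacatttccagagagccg
Hao2 locus, chr3:98687737-98688036: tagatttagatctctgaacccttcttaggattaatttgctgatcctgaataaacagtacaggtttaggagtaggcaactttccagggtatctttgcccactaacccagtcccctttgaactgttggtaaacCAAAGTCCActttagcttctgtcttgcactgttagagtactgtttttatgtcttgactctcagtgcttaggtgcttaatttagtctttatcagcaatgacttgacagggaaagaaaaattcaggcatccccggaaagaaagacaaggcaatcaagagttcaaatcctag
Cps1 locus, chr1:67172073-67172372: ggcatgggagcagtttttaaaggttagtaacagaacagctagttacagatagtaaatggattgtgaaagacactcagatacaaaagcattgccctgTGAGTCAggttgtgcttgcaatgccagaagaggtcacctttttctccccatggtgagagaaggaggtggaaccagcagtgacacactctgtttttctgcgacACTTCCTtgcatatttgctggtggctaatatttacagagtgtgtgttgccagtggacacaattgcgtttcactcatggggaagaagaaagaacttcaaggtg

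In the Hao2 locus the 9 capitals are the strict HNF4 string, which starts 18 bases before the middle of the peak. In the Gprc5b locus they are a looser HNF4 string on the minus strand, 29 bases after the middle. The Cps1 locus held an AP-1 string and an ETS string on either side of the middle, and the Sik1 and Orm3 windows held none of the strings searched.

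LD-only loci had low peaks. Their height was 9.75 in LD replicate 1 and 10.5 in LD replicate 2 at the median, and the mean of both ran from 3.62 to 111 with a median of 10.2. Loci with a peak in all 4 lists had a median mean LD height of 34.6. The 6666 loci with peaks in both LD lists and 1 CD list, which miss the rule by that peak, lay between them with a median of 15.5, and 5827 of these had their CD peak in CD replicate 2. Their CD peaks were 8.0 high at the median in CD replicate 1 and 14.8 in CD replicate 2. A height of at least 20 in both LD lists was reached by 299 LD-only loci. The heights of the 2 LD samples were ordered alike, with Spearman's rho = 0.778 over the 3432 loci, which share the samples and the scaling.

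**Figure D1:**
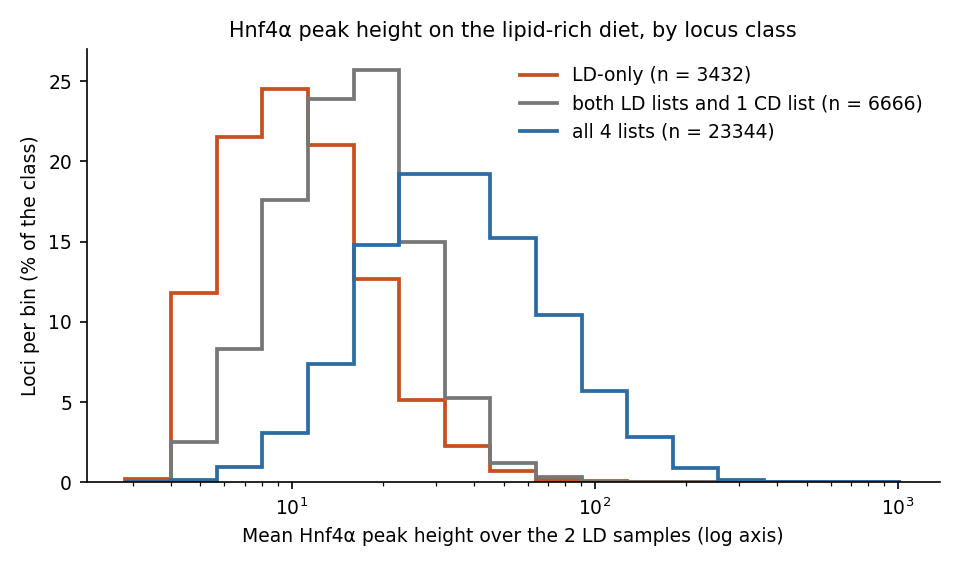
Distribution of the mean Hnf4α peak height over the 2 LD samples (horizontal, log axis) as a percentage of each locus class (vertical), for LD-only loci (3432), loci with peaks in both LD lists and 1 CD list (6666) and loci of all 4 lists (23344). The LD-only distribution lies lowest with a median of 10.2 and overlaps the others.

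The highest LD-only loci often lay beside a CD peak that did not overlap them. The middle of a CD peak was within 1 kb of 418 loci (12.2%) and within 500 bp of 180 (5.24%). This share was 3.01% in the lowest of 4 height groups of similar size, 27.5% in the highest and 51.0% among the 100 highest loci. At the highest locus of all, chr11:110241382-110241608, 19 kb upstream of Map2k6 (a kinase that activates p38), the LD peaks were 118 and 104 high, and CD peaks of 76.2 and 165 lay within 1 kb, the nearest at 336 bp. The locus 16.6 kb upstream of Uox (urate oxidase) had LD heights of 114 and 75.5 and CD peaks of 60.2 and 131 within 1 kb, the nearest at 316 bp. Likewise Ces1d (a carboxylesterase), Dbi (acyl-CoA binding protein) and Slc6a13 (a transporter of GABA and taurine) had CD peaks of both samples within 1 kb, the nearest at 400, 240 and 459 bp, and Tob1 a CD peak in replicate 2 at 741 bp. The other 4 of the 10 highest had no CD peak middle within 1 kb. They lay near Sik1 (heights 93.0 and 86.5, a salt-inducible kinase), Grhpr (87.5 and 68.2, glyoxylate reductase), Gadd45b (57.8 and 68.5, a stress-induced protein) and Dnmt1 (57.2 and 63.5, the maintenance DNA methyltransferase), with the nearest CD peak 1135 to 2604 bp away. Results are therefore also given for the 3014 loci with no CD peak within 1 kb, a set chosen after seeing the data.

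LD-only loci lay mostly away from promoters. Of the 3432 loci, 277 (8.07%, Wilson 95% interval 7.21 to 9.03) had their middle within 1 kb of a transcription start site (TSS), against 12.2% of loci in all 4 lists and 30.6% of the 1816 loci found in both CD lists alone (CD-only). The median distance to the nearest TSS was 24.7 kb, against 19.2 kb in all 4 lists and 9.97 kb for CD-only loci, and 1087 loci (31.7%) were beyond 50 kb. By annotation 1519 loci (44.3%) were intronic, 1477 (43.0%) intergenic, 89 (2.59%) in other exonic sequence and 70 (2.04%) in UTRs, besides those near a TSS. Where a CD peak lay within 1 kb, 24.4% of loci were within 1 kb of a TSS, against 5.81% of the rest.

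The strict HNF4 string CAAAGTCCA occurred in the central 200 bp of 180 of 3430 LD-only loci (5.25%), and in 0.219% of windows of the same length 1000 bp to either side. It occurred in 6.45% of loci in all 4 lists and in 2.15% of CD-only loci. Its looser form CAAAGNNCA was found in 21.4% of LD-only loci and 5.13% of their flanks, in 26.7% of loci in all 4 lists and in 14.9% of CD-only loci. Among LD-only loci the strict string was present in 5.64% without a CD peak within 1 kb and in 2.39% with one. By height group it was present in 6.95% of the lowest, then 5.59% and 4.91%, and in 3.51% of the highest. The C/EBP string ATTGCNNAA stood in 6.44% of LD-only loci (flanks 1.92%) and 6.45% of loci in all 4 lists. The AP-1 string TGANTCA stood in 9.88% (flanks 5.69%), against 7.42% in all 4 lists and 6.12% of CD-only loci. The FOXA string TGTTTAC was found in 5.07% (flanks 2.81%), against 6.14% in all 4 lists. The ETS string AGGAAGT was no more frequent in LD-only loci (4.69%) than in their flanks (5.13%). Matches to strings are a description and not evidence of binding by a factor.

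H3K27ac covered fewer LD-only loci than loci of all 4 lists, and more of them in LD than in CD livers. The LD samples had an H3K27ac peak at 49.3%, 46.5% and 47.2% of LD-only loci and the CD samples at 40.3%, 38.4% and 40.1%. Each LD sample was above each CD sample. The difference was 8.08 percentage points (47.7 ± 1.46 against 39.6 ± 1.06, SD, n = 3 each), with p = 0.10 in an exact two-sided permutation test, the smallest that 3 against 3 samples allow. Over loci of all 4 lists the shares were 83.7% to 86.2% in LD and 83.3% to 84.6% in CD samples, a difference of 0.731 points (exact permutation p = 0.60). Divided by that share, the LD-only share was 0.563 ± 0.00970 on the LD and 0.472 ± 0.0101 on the CD, again without overlap (exact permutation p = 0.10). Over the 3014 loci with no CD peak within 1 kb the shares were 42.2 ± 1.44% and 33.4 ± 1.07%, a difference of 8.81 points. CD-only loci went the other way by 2.64 points, with 74.7 ± 1.55% on the LD and 77.3 ± 0.71% on the CD. The LD samples had longer H3K27ac lists, with 149.8 to 160.4 Mb against 139.7 to 145 Mb, and the part of this in the difference was not tested beyond the ratio given here.

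Most LD-only loci did not change their H3K27ac state with the diet. Of the 3432 loci, 1435 (41.8%) had no H3K27ac peak in any of the 6 samples and 1053 (30.7%) had one in every sample. A peak in all 3 LD samples and in no CD sample was found at 105 loci (3.06%), and the reverse at 6 (0.175%). In loci of all 4 lists these shares were 0.690% and 0.377%. H3K27ac rose with the height of the Hnf4α peak, from 14.7% to 16.5% of loci in the lowest height group to 83.6% to 86.2% in the highest over the LD samples. In the CD samples it ran from 12.5% to 12.7% in the lowest group to 73.9% to 76.5% in the highest, below every LD sample in each of the 4 groups.

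**Figure D2:**
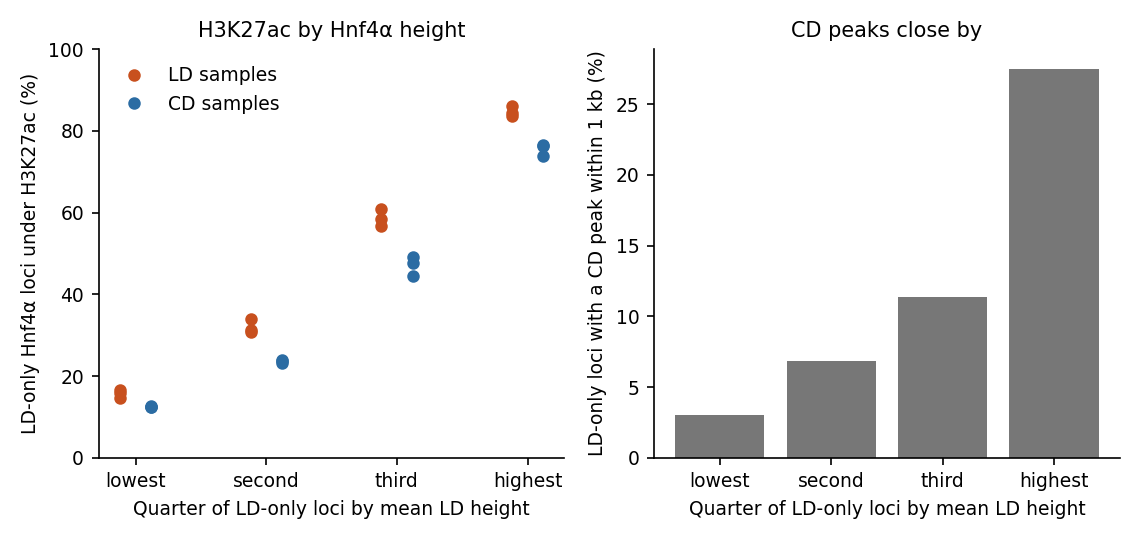
Left, share of LD-only Hnf4α loci under an H3K27ac peak (percent) in each of 3 LD and 3 CD samples, by group of mean LD Hnf4α height (4 groups of similar size); right, share of the same loci with the middle of a CD Hnf4α peak within 1 kb. Both rise with height, the latter from 3.01% to 27.5%, and in each group the LD points lie above the CD points.

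C/EBPα peaks also overlapped LD-only loci more often on the LD. On the LD 27.2% and 28.9% of LD-only loci had one, and on the CD 19.6% and 15.5%. Both LD samples were above both CD samples, by 10.5 points on average (28.1 ± 1.17 against 17.6 ± 2.88, SD, n = 2 each, exact permutation p = 0.333, the smallest possible for 2 against 2). Loci of all 4 lists moved the same way, with 46.6% and 47.2% on the LD and 42.5% and 36.3% on the CD. As a ratio to that share, the LD-only share was 0.598 ± 0.0195 on the LD and 0.445 ± 0.0234 on the CD. The C/EBPα lists were the longer ones on the CD, with 41713 and 46371 peaks against 38281 and 39310 on the LD. At CD-only loci the samples overlapped, with 21.1% and 20.4% on the LD and 22.0% and 17.5% on the CD. No C/EBPα peak of any sample was present at 2049 LD-only loci (59.7%), 302 (8.80%) had one in all 4 samples, and 235 (6.85%) had one in both LD samples alone against 21 (0.612%) in both CD samples alone. In loci of all 4 lists the shares with one in the LD samples alone and in the CD samples alone were 5.31% and 1.31%.

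**Figure D3:**
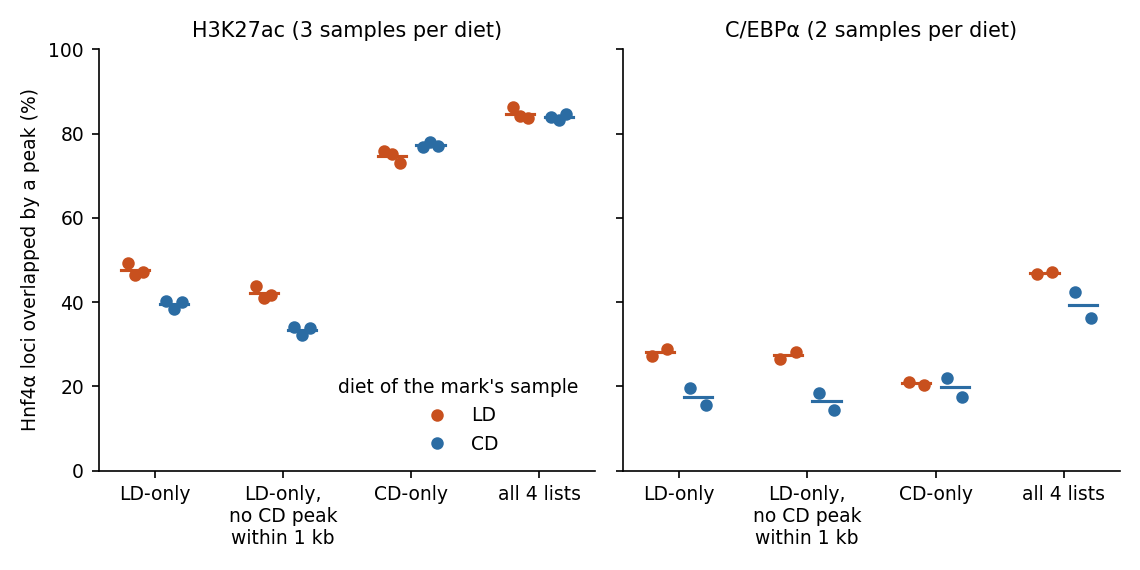
Percentage of Hnf4α loci overlapped by an H3K27ac peak (left) or a C/EBPα peak (right), 1 point per sample and a line at the mean, for 4 sets of loci. At LD-only loci the LD samples lie above the CD samples for both marks, by 8.08 and 10.5 points.

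Only 12 LD-only loci (0.350%) had both H3K27ac and C/EBPα in every LD sample and no CD sample, and none of these had a CD Hnf4α peak within 1 kb. Of their nearest genes B430212C06Rik (an uncharacterised transcript), Gprc5b (an orphan G protein-coupled receptor) and Orm3 (an orosomucoid, an acute phase plasma protein) were higher on the LD, with log2 fold changes of 4.31, 3.68 and 3.35. Top2b (a DNA topoisomerase) was not called, with a log2 fold change of -0.24, and 7 loci were nearest to transcripts with too few reads to test.

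PCHi-C links placed LD-only loci in promoter contacts at similar rates on both diets. The LD list had a contact (CHiCAGO score of at least 5) for 1004 loci (29.3%) and the CD list for 977 (28.5%), against 34.0% and 35.8% of loci in all 4 lists. With 1 pooled list per diet there was no replicate to test. Contacts of the LD and the CD list joined 912 and 882 LD-only loci to a gene's promoter. Of the 1381 contacted genes tested from the LD list 207 (15%) were called higher and 157 (11.4%) lower on the LD, and of 1353 from the CD list 207 (15.3%) and 168 (12.4%). The shares over all genes, given next, are close to these.

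For RNA, a gene was called at an adjusted p under 0.05 in edgeR's quasi-likelihood test and a fold change above 1.2. In a whole liver, a gain of cells of a type and more RNA per cell cannot be told apart. The LD-only loci had 2848 nearest genes, of which 1979 had enough reads to test. Of those tested 321 (16.2%) were called higher on the LD and 257 (13%) lower, against 13.8% and 11.1% of all 13494 genes tested (24.9% in either direction), so that both shares lay slightly above the background. Their median log2 fold change was 0.00, as over all genes. For the 1548 tested genes with an LD-only locus within 50 kb the shares were 17.0% higher and 11.8% lower, and for the 1728 genes of loci with no CD peak within 1 kb 17.0% and 12.4%. For the 559 tested genes nearest to an LD-only locus beyond 50 kb they were 15.2% higher and 17.2% lower. Nearest genes of loci in all 4 lists were higher in 13.7% and lower in 15.2%, and those of CD-only loci in 10.5% and 19.1%. Genes next to LD-only loci that had a CD peak within 1 kb went with these, with 10.9% higher and 16.7% lower. Where the locus lay within 1 kb of the TSS, 28 of 226 genes (12.4%) were higher and 23 (10.2%) lower, below the background in both directions.

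The share called higher was larger where the marks also appeared on the LD alone. For the 105 loci with H3K27ac in the LD samples alone, 22 of 59 nearest genes tested (37.3%) were higher and 4 (6.78%) lower, with a median log2 fold change of 0.20. For the 235 loci with C/EBPα in the LD samples alone, 39 of 149 tested (26.2%) were higher and 16 (10.7%) lower. Loci with H3K27ac in all 6 samples had 14.9% higher and 14.8% lower among 844 genes, loci without any H3K27ac peak 16.3% and 12.2% among 729, and loci without any C/EBPα peak 15.7% and 13.8% among 1267. These are counts set beside each other and no test of the difference was made.

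**Figure D4:**
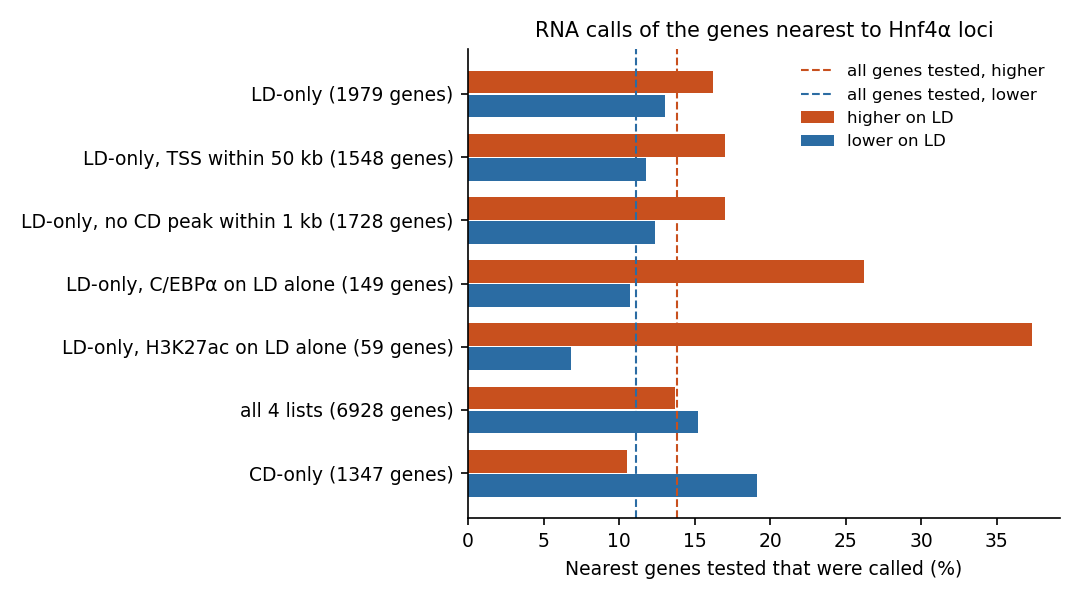
Percentage of tested nearest genes called higher (orange) or lower (blue) on the LD, for sets of Hnf4α loci, with dashed lines at the shares over all genes tested (13.8% and 11.1%). The longest bar is the 37.3% called higher beside loci with H3K27ac in the LD samples alone.

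Genes that rose beside an LD-only locus included lipid droplet proteins. Of the nearest genes within 50 kb, 188 (12.1%) were called higher and 111 (7.17%) lower with all 5 LD mice on one side of all 5 CD mice and at least 1 CPM on a diet, against 8.71% and 6.51% of all genes tested. Diets did not overlap for 22.1% of these nearest genes, whichever their fold change, and for 18.5% of all genes tested. Cidea, which drives the fusion and growth of lipid droplets, had 22.2, 23.9, 41.0, 27.7 and 22.7 CPM (reads scaled to library size by edgeR) in the LD mice and 0.478, 0.705, 0.922, 0.381 and 0.320 CPM in the CD mice. The lowest LD mouse was far above the highest CD mouse, with a log2 fold change of 5.58 (SE 0.273, adjusted p = 2.58e-06). Its LD-only locus lay 13.6 kb upstream (chr18:67489545-67489770), with Hnf4α heights of 18.5 and 31.0, H3K27ac in 3 LD samples and no CD sample, and no C/EBPα peak. A second locus, chr18:67511499-67511741, lay in an intron of Cidea but nearer to the start of B430212C06Rik on the other strand, with heights of 16.0 and 21.8 and with H3K27ac and C/EBPα in the LD samples alone. B430212C06Rik overlaps the start of Cidea on the opposite strand, and reads had been counted by strand. Its RNA was 1.13 to 2.45 CPM on the LD and 0 to 0.159 CPM on the CD. Plin4, a coat protein of lipid droplets, had 26.2, 35.7, 45.4, 58.6 and 74.6 CPM on the LD and 2.64, 2.24, 6.56, 4.51 and 4.69 CPM on the CD, a log2 fold change of 3.54 (SE 0.377, adjusted p = 0.000240). Its locus was in a UTR 8.51 kb downstream of the TSS with heights of 9.25 and 11.8, and H3K27ac was present in all 6 samples.

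Other large rises were in metabolic enzymes and transporters. Hao2, a peroxisomal 2-hydroxy acid oxidase, had 3.44, 1.61, 3.76, 16.7 and 4.56 CPM on the LD and 0.127, 0.157, 0.642, 0.413 and 0.640 CPM on the CD. The value of 16.7 stood apart, and without that mouse the log2 fold change of 3.91 was 3.06, the lowest of the 10 fits that leave out a mouse. Its 2 loci were intronic, 4.84 and 9.27 kb from the TSS, with heights of 4.25 to 9.0 and no H3K27ac peak in any sample, and the first had C/EBPα in both LD samples alone. Agpat9, an acyltransferase of the first step of triglyceride synthesis, had 14.9 to 25.8 CPM on the LD and 2.10 to 4.44 on the CD (log2 fold change 2.79, SE 0.221, adjusted p = 1.43e-05), and its intronic locus of heights 5.50 and 10.2 had C/EBPα in both LD samples alone and no H3K27ac. Treh, trehalase, had 3.45 to 6.86 CPM against 0.60 to 0.978 (log2 fold change 2.67), and Slc16a5, a member of the monocarboxylate transporter family, 19.7 to 38.4 against 3.23 to 9.94 (2.40). The Slc16a5 locus (17.2 and 25.2) had CD Hnf4α peaks of 8.75 and 16.2 within 1 kb and H3K27ac in all 6 samples. Cyp2a22, a cytochrome P450 whose close copies make its count uncertain, had 6.85 to 53.0 CPM against 1.04 to 3.94 (3.83). Its locus had C/EBPα in 2 LD samples and 1 CD sample.

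Genes of signalling and other cell functions rose as well. Gprc5b had 2.41, 2.62, 9.37, 11.9 and 14.2 CPM on the LD and 0.414, 0.522, 0.698, 1.08 and 0.437 CPM on the CD, separated but with a wide spread (log2 fold change 3.68, SE 0.606, adjusted p = 0.00209). It was nearest to 5 LD-only loci, of which 3 lay in its own introns, and 4 were within 50 kb. The locus shown above, chr7:126123314-126123552, had heights of 15 and 21.5. Rbm24, an RNA-binding regulator of splicing known from muscle, had 0.667 to 1.77 CPM on the LD, and 4 reads in all over the 5 CD mice (log2 fold change 5.58). Its locus 4.61 kb upstream (heights 16.2 and 22.0) had H3K27ac in the LD samples alone, with a CD Hnf4α peak of 6.00 in replicate 2 at 534 bp. Orm3 had 5.36, 2.79, 7.76, 12 and 9.20 CPM on the LD and 0.640 to 0.838 on the CD, and its locus lay 1.75 kb upstream with heights of 11.5 and 10.2. Tmem45b (0.352 to 2.77 against 0.0318 to 0.196 CPM), Cdkn3, a phosphatase of cyclin-dependent kinases (0.595 to 1.82 against 0.0838 to 0.255), and Ephb2, an ephrin receptor (1.81 to 15.6 against 1.02 to 1.57), were separated at low levels. The higher of the Tmem45b loci (19.5 and 26.2) had a CD Hnf4α peak of 21.5 in replicate 2 at 414 bp. Itgax, the integrin CD11c of dendritic cells and macrophages, had 4.22 to 14.2 CPM against 1.43 to 1.68, and its locus 31.2 kb upstream was low (5.25 and 5.50) with no H3K27ac or C/EBPα. Of 16 macrophage markers 7 were called higher and none lower, with a summed level of 641 to 1553 CPM on the LD and 473 to 907 on the CD. Their part in the change of Itgax was not tested.

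Genes that fell beside an LD-only locus included abundant genes of hepatocyte function. Cps1, the first enzyme of the urea cycle, had 3560.4, 3822, 2050.4, 2303 and 2050.0 CPM on the LD and 7425, 8342, 6914, 6489.7 and 5575 CPM on the CD, a log2 fold change of -1.33 (SE 0.193, adjusted p = 0.000545). Its intronic locus 2.62 kb into the gene (chr1:67172080-67172331, heights 19.8 and 23.0) had H3K27ac in all 6 samples. Avpr1a, the vasopressin receptor of hepatocytes, had 2.20 to 4.95 CPM against 16.7 to 21.3 (log2 fold change -2.46, SE 0.187, adjusted p = 8.57e-06), the largest fall under the rule. Igfbp2, a binding protein of insulin-like growth factors, had 63.1 to 149 CPM against 286 to 406 (-1.79), with a locus at its promoter (11 and 7.25) that had CD peaks of 9.0 and 15.5 within 1 kb, the nearest at 310 bp. Ces3b, a carboxylesterase, had 77.2 to 231 CPM against 429.7 to 554 (-1.73), Cyp2c70, which makes muricholic acids in mice, 132 to 199 against 336 to 542 (-1.48), and Mup21, a major urinary protein, 88.6 to 279 against 419 to 525 (-1.40). Counts of Ces3b, Cyp2c70 and Mup21 are uncertain to the extent that close copies share reads. Slco2a1, a prostaglandin transporter, had 10.7 to 15.6 CPM against 26.1 to 39.8 (-1.37), and Elovl3, a fatty acid elongase, 50.5 to 101 against 151 to 226 (-1.36), both with an LD-only locus at the TSS and H3K27ac in all 6 samples. For Slco2a1 CD Hnf4α peaks of 12 and 24.5 lay within 1 kb, the nearest at 611 bp. The Mup21 locus (10.5 and 11.5) had CD peaks of 31.8 and 90.8 within 1 kb, the nearest at 573 bp, and the Ces3b locus (21.2 and 13) a CD peak of 8.75 in replicate 2 at 402 bp.

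**Figure D5:**
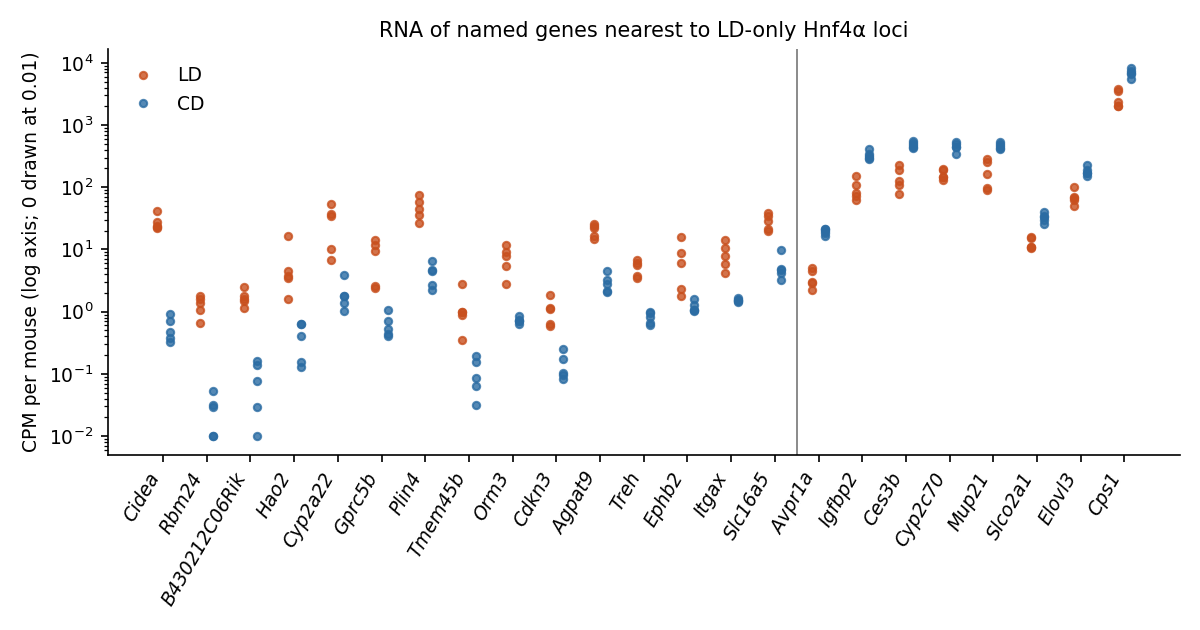
RNA level (CPM, log axis, 1 point per mouse, 0 drawn at 0.01) of the 15 genes with the largest rise and the 8 with the largest fall among separated nearest genes of LD-only loci within 50 kb. The 5 LD and 5 CD mice do not overlap for any of them, which the choice of these genes required.

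The 22 genes that rose beside loci with H3K27ac in the LD samples alone also included Osbpl3, an oxysterol-binding protein (31.1 to 68.9 CPM against 5.95 to 8.74, log2 fold change 2.80), S100a10, a partner of annexin A2 (179 to 314 against 98.9 to 157, 0.86), Map1lc3a, an autophagosome protein (28.5 to 37.5 against 23.0 to 27.2, 0.43), and Dnmt1 (20.2 to 27 against 18.5 to 20.6, 0.32). The 4 that fell were Edem1, Fzd8, Spred2 and Tle1, by 0.40 to 0.53 on the log2 scale. Beside loci with C/EBPα in the LD samples alone rose Hk2, a hexokinase (7.63 to 12 against 2.92 to 5.06 CPM, 1.47), Abcd2, a peroxisomal importer of very long fatty acids (70.4 to 102 against 41.2 to 56.3, 0.87), Ldha, lactate dehydrogenase (941 to 1156 against 659 to 753, 0.54), and again Osbpl3, at another locus. Scd1, the stearoyl-CoA desaturase, was the most abundant that fell there (9130.1 to 15771 against 19621 to 33951 CPM, -0.96), and CD Hnf4α peaks of 46.8 and 110 lay within 1 kb of that locus, the nearest at 828 bp. These genes were chosen after their values were seen, except those named by rule above and in the lists below.

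Several LD-only loci could share a nearest gene: 488 genes had at least 2 and 22 had at least 4. Zfp608, a zinc finger protein gene, had 7 with heights from 5.50 to 14.2, spread from 21.1 to 502 kb from its TSS. Besides Gprc5b, 5 loci each were nearest to Klf4 and Maf, both transcription factors, and to Cdh26, a cadherin. Among those with 4 were Tapt1, Ccnl1 (a cyclin), Sh3pxd2a (a scaffold of podosomes), Pfkfb3 (which makes an allosteric activator of glycolysis) and H2afy3. The genes named here are the 10 with most loci. Apart from Gprc5b, none of those with enough reads to test was called, where 24.9% of all genes tested were. The diets overlapped for each of them, where they did not for 18.5% of all genes tested. They are too few to compare with these shares. Pfkfb3, for example, had 9.92 to 15.8 CPM on the LD and 8.47 to 21 on the CD. Its 4 loci all lay within 50 kb with H3K27ac in 2 or 3 LD samples and 0 to 2 CD samples. H2afy3 had no read in any mouse and Cdh26 too few to test.

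Among lipid genes, the oxidation and lipid droplet genes that were called beside LD-only loci were higher, and synthesis genes went both ways. Of 34 genes of fatty acid oxidation 21 were called higher and 1 lower, and 7 of the 34 were nearest to an LD-only locus. Of these 5 were higher and none lower. Aldh3a2, a fatty aldehyde dehydrogenase, rose from 469 ± 106 to 1236 ± 201 CPM (SD, n = 5 each, log2 fold change 1.40), Pdk4, which inhibits pyruvate dehydrogenase, from 7.88 ± 2.70 to 17.0 ± 5.05 (2.15-fold), Acadm, a mitochondrial acyl-CoA dehydrogenase, from 342 ± 26.1 to 526 ± 37.5 (0.62), and Cpt1a, the carnitine acyltransferase that controls entry into mitochondria, from 478 ± 55.0 to 720.0 ± 91.2 (0.59). The Cpt1a locus (chr19:3336133-3336370, intronic) was among the higher ones, with heights of 45.8 and 28.2. Of 22 genes of fatty acid and triglyceride synthesis 3 were higher and 9 lower, and of the 7 beside LD-only loci 2 were higher and 3 lower. The 3 were Acacb, an acetyl-CoA carboxylase (-0.98), Scd1 (-0.96) and Elovl6 (-0.85), while Lpin2, a phosphatidate phosphatase, rose (0.67). The Acacb locus (43.0 and 29.2) had CD Hnf4α peaks of 28.2 and 42.2 within 1 kb, the nearest at 417 bp. All 3 listed lipid droplet genes beside LD-only loci rose, namely Cidea, Plin4 and Mgll, the monoglyceride lipase (0.48, called in 3 of the 10 fits without 1 mouse), of 11 risen and 1 fallen in 19 tested. Cd36, the fatty acid translocase (111 ± 29.4 to 414 ± 97.8 CPM, log2 fold change 1.89), and Fabp4, a fatty acid binding protein (7.76 ± 1.52 to 20.6 ± 2.65, 1.41), rose among 5 uptake and binding genes, of 5 risen and 2 fallen in 17. Fabp4 is also on the adipocyte marker list, of which 3 were called higher and 1 lower of 6 tested. The sum of that list was 4257 to 6503 CPM on the LD and 3851 to 6393 on the CD, most of it from Car3 (3527 to 5585 and 3022 to 4597 CPM), and the part of adipocytes was not tested. The apolipoprotein genes Apoa1 and Apob were not called (-0.20 and -0.23) although Apoa1 had 2 LD-only loci of mean height 25 and 33.4.

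Genes of amino acid and glucose metabolism beside LD-only loci were more often lower. Of 26 genes of amino acid and urea metabolism 13 were lower and 2 higher, and of 8 beside LD-only loci 7 were lower and 1 higher. They included Cps1, Hal, which degrades histidine (-0.71), Gnmt, a glycine methyltransferase (-0.68), and Agxt, a glyoxylate aminotransferase (-0.47). The Agxt locus (14.5 and 23.0) had CD Hnf4α peaks of 32.2 and 87.0 within 1 kb, the nearest at 794 bp. Of 9 glucose and glycogen genes beside LD-only loci 5 were lower and 1 higher, of 9 and 2 in the 24 of the list. Irs2, an adaptor of the insulin receptor, fell from 15.9 ± 2.29 to 6.24 ± 1.03 CPM (log2 fold change -1.35), Irs1 from 41.1 ± 11.1 to 24.8 ± 4.10 (-0.73), and Ppargc1a, a coactivator of gluconeogenesis, from 11 ± 1.84 to 6.63 ± 0.474 (-0.73). Ppp1r3c, a glycogen-targeting subunit (-0.95), was called in 5 of the 10 fits without 1 mouse. CD Hnf4α peaks of 16.0 and 27.8 lay within 1 kb of the Ppargc1a locus, the nearest at 829 bp. Beside the Ppp1r3c locus CD replicate 1 had a peak of 5.25 at 467 bp. Of 11 cytochrome P450 genes of families 2 and 3 beside LD-only loci 1 was higher and 3 lower, against 10 and 5 of 28 tested. Of 4 conjugation genes 3 were higher (10 higher and 3 lower of 27), among them Gstm3, a glutathione transferase (2.23), and Ephx1, the microsomal epoxide hydrolase (1.23). Of 7 secreted factors and their receptors 5 were lower (4 higher and 11 lower of 26), with Lifr, the receptor of leukaemia inhibitory factor (-1.29), and Vegfa (-0.56) beside Igfbp2. In the other lists Cyp7b1, an enzyme of bile acid synthesis, was lower (-1.31), 1 of 2 acute phase genes was higher (Orm3; 12 higher and 5 lower of 29 in the whole list), 1 of 3 cytoskeleton genes was higher (Tpm1, 0.68; 10 and 4 of 29), and none of 4 circadian clock genes was called (0 and 3 of 18). Some of these loci lay beyond 50 kb, as for Pdk4, Irs1, Irs2, Lifr, Vegfa and Cyp7b1. These lists hold few of the nearest genes, and most of their genes also had a locus of all 4 lists nearest to them, 29 of 34 for fatty acid oxidation and 24 of 26 for amino acid metabolism.

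Genes of transcription factors were also among the nearest genes. Of 11 hepatocyte factors 2 were higher and 3 lower (3 and 6 of 28 in the whole list). Pparg, the lipogenic nuclear receptor, rose from 16.2 ± 0.899 to 43.2 ± 8.64 CPM (log2 fold change 1.41, SE 0.122, adjusted p = 1.25e-05) and Xbp1, a factor of the unfolded protein response, fell from 257 ± 50.7 to 179 ± 22.3 (-0.52). Of 7 AP-1, ETS and stress factors 1 was called (8 higher and 1 lower of 23 in the whole list), Gadd45b, with 1.24 ± 0.315 CPM on the LD and 0.594 ± 0.223 on the CD (1.06). Cebpa itself had an LD-only locus 11.2 kb downstream (chr7:35915375-35915612, heights 25.2 and 24.2) with H3K27ac in all 6 samples. Its RNA was 321 ± 26.8 CPM on the LD and 384 ± 23.5 on the CD, a log2 fold change of -0.26 at an adjusted p of 0.0202, just under the fold threshold, and it was called in 5 of the 10 fits without 1 mouse. Hnf4a had no LD-only locus and 399.8 ± 34.7 against 478 ± 19.3 CPM (-0.26, adjusted p = 0.0176), also short of the fold threshold. Lcn2, lipocalin 2, rose from 1.38 ± 0.628 to 27.9 ± 4.44 CPM (4.32) and was not the nearest gene of an LD-only locus.

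Of the nearest genes of the 10 highest LD-only loci, 4 were called, where 24.9% of all genes tested were. Sik1 (-0.79, called in 9 of the 10 fits without 1 mouse) and Uox (-0.31, called in 3 of them) were lower, Gadd45b and Dnmt1 higher, and Map2k6, Grhpr, Ces1d, Dbi, Tob1 and Slc6a13 were not called, with log2 fold changes from -0.16 to 0.26. In the highest height group 18.8% of 649 nearest genes tested were higher and 14.8% lower, in the lowest 15.1% and 12.7% of 511, against 13.8% and 11.1% of all genes tested.

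Markers of the tissue were in place. The 11 hepatocyte markers summed to 99330.1 to 115050.0 CPM on the LD and 111384 to 123547 on the CD, with 4 lower and none higher. Stellate cell and fibroblast markers (7 of 14 higher, 890.1 to 1255 against 755 to 901 CPM) and cholangiocyte markers (1 higher and 1 lower of 7 tested, 48.6 to 125 against 23.1 to 37.2) were summed higher on the LD, and endothelial markers were not (517 to 729.7 against 603 to 739). Lymphocyte markers summed to 36.8 to 81.8 against 28.5 to 36.6 CPM with 4 higher and 1 lower, and of 6 adipocyte markers tested 3 were higher and 1 lower, while Lep and Plin1 had no read in any mouse. No stellate or lymphocyte marker was the nearest gene of an LD-only locus, and of the macrophage markers Itgax and Csf1r were. The part of other cell types in these results was not tested.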

How the data were processed

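Livers of mice on the LD or CD were profiled by RNA-seq and ChIP-seq. Per the labels and the study's methods, the authors aligned RNA read pairs to mm9 with STAR 2.5, counted them by strand on RefSeq genes with featureCounts 1.5.0-p1 and deposited these counts without normalization. HOMER was run by the authors on deduplicated reads of each transcription factor sample with its input as control, and lists were deposited with a peak height (a signal normalized between libraries), the tag count, a score, and a ratio (fold over input). Deposited H3K27ac intervals come from SICER per sample, without a signal value, and the CHiCAGO score from the authors' pooled PCHi-C replicates. The TPM table, which also holds the authors' DESeq2 comparison, and the TADs were not used. Some genes and the sequence of a locus are not reported here. The number of unmapped columns was 0.

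Overlapping Hnf4α peaks (at least 1 bp) were merged into loci. The members and gene lists were chosen with earlier results of these data known. Distances run from the middle of the higher LD peak to the nearest TSS of the count table, and sequence came from NCBIM37, which is mm9. Counts were tested with edgeR 4.0.16 (TMM, filterByExpr, robust quasi-likelihood) in R 4.3.3 over 13494 of 25494 rows with Benjamini-Hochberg adjustment. Shares of loci under a mark were compared between samples by exact permutation. Wilson intervals (95%) cover counting error only. Named genes were the 15 highest and 8 lowest fold changes among called, separated nearest genes within 50 kb with at least 1 CPM, genes with at least 4 loci (10 at most), those of the 10 highest loci, Lcn2, Hnf4a, Cebpa and up to 4 per gene list. Alternatives were DESeq2 1.42.0, its size factors, no filter, a replicate block, other merging, height and overlap rules, equal list lengths and the omission of each library. On simulated counts for LD against CD over 13494 genes, 96 of 100 genes changed by a fold of 2 and 65 of 100 changed by 1.5 were recovered, with 8 calls among 13294 unchanged genes. All 269 simulated LD-only loci among 5000 were found. Simulated peaks of a locus always overlapped, so that this checks the merging only. It holds no case of a CD peak beside a locus without overlap.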

Additional observations from a re-analysis of the deposited data

Results flagged for a closer look

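Single mice stood apart from the other 4 of their diet (a gap to the nearest mouse above Dixon's 95% critical share of the range) in 6 of 90 gene and diet pairs among 45 named genes, where chance gives about 1 in 20. Hao2 had 16.7 CPM in LD replicate 4 against 1.61 to 4.56 in the others. Tmem45b had 2.77 CPM in LD replicate 5 against 0.352 to 1.0. Cyp2a22 had 3.94 CPM in CD replicate 3 against 1.04 to 1.78, and Slc16a5 had 9.94 CPM in the same mouse against 3.23 to 4.80. Hnf4a had 459 CPM in LD replicate 4 against 372 to 397, and Uox had 3282 CPM in LD replicate 2 against 2489.7 to 2718. No cause was tested. Without any 1 mouse, Hao2, Tmem45b, Cyp2a22 and Slc16a5 were still called in all 10 fits.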

How the results depend on the processing

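The number of LD-only loci (3432) was 3442 with an overlap of at least 100 bp to merge, 3396 with peaks within 100 bp merged, 1409 with only peaks of at least 20 height in every list (of which 299 were LD-only loci of the full lists), and 4285 to 10481 when 1 list was left out, since a diet then rests on 1 list. The H3K27ac difference was 7.26 to 8.66 points without 1 sample and the C/EBPα difference 8.46 to 12.5, always higher on the LD. Nearest genes called higher numbered 292 to 323 and lower 207 to 290 without 1 mouse, and over all genes 1631 to 1890 and 1202 to 1595. DESeq2 called 353 nearest genes higher (14.4%) and 290 lower (11.8%), and over all genes 2081 (11.4%) and 1695 (9.29%). With a replicate block 315 were higher and 240 lower, and over all genes 1818 and 1355, of which 3020 were shared with the 3357 called without it. Same-numbered mice deviated together with r = -0.08 to 0.19 and only those numbered 2 correlated best with each other, so that the numbers were not taken to pair mice. In a window of 300 bp the C/EBP string was found in 7.78%, AP-1 in 13.2%, FOXA in 6.24% and ETS in 7.17% of loci (4.69% in 200 bp), as more bases were searched. In the 200 bp window the looser HNF4 string was found in 21.4% of loci, where the strict one had 5.25%. At a CHiCAGO score of at least 10, 8.62% of loci were in an LD contact and 9.06% in a CD contact. Over 101 named genes and 1414 refits, 1347 kept direction and call, 32 lost and 25 gained the call, and 10 changed sign, all without 1 mouse and all of genes not called. These were Map2k6 (-0.22 to 0.09), Pfkfb3 (-0.31 to 0.04), Dbi (-0.05 to 0.09), Slc6a13 (-0.10 to 0.01), Mttp (-0.09 to 0.02) and Arntl (-0.34 to 0.10). Peak lists hold no reads outside peaks, so that a change in signal below the caller's threshold could not be measured.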
